A study of Mus musculus with 18 samples.

Results

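The genes described here are 33 genes of the lysosome, the acidic compartment in which cells break down proteins, sugars and lipids. They were picked by name from the 54532 genes of the deposited count table: 7 cysteine cathepsins and legumain, 3 aspartic and serine proteases, 9 enzymes that cut sugar chains or their sulfate groups, 5 lipid enzymes, lipid carriers and soluble cofactors, 5 membrane proteins and 4 proton pump subunits. All 33 were found and all 33 passed the low-count filter. The study sequenced polyadenylated RNA from the gastrocnemius, a calf muscle, of female C57BL/6 mice. Libraries labelled mKO came from mice with Zfp697, the gene of a zinc finger protein, conditionally knocked out in skeletal muscle, and those labelled flox from flox/flox mice, which the series also calls wild type. Each genotype had 3 libraries kept as controls in ordinary cages, 3 after 10 days of hindlimb unloading and 3 after 3 days of reloading that followed unloading. The Cre driver, the deleted part of Zfp697, the ages and whether the 3 libraries of a group came from different animals are not given in the sources used here, so every p-value below refers to the spread among libraries and that spread may be technical.

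Lysosomal hydrolases are made in the endoplasmic reticulum, tagged with mannose 6-phosphate in the Golgi and delivered to lysosomes, where a proton pump, the V-ATPase, keeps the pH at which they work. Muscle fibres depend on them to clear glycogen and worn organelles, and loss of acid alpha-glucosidase causes Pompe disease, a muscle disease of lysosomal glycogen storage. Macrophages, which clear debris from damaged muscle, are also rich in lysosomes. The transcription factors TFEB, TFE3 and MITF switch on many lysosomal genes through an E-box, CACGTG, near the start of transcription.

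Promoter windows of 300 bases, from 250 before to 50 after a start, were taken from RefSeq on GRCm38.p6 for 29 of the 33 genes, which gave 32 windows. The 5 genes shown are those the results turn on: Mcoln1, Ctsl and Gaa are the 3 that fell on reloading in flox muscle, and Lgmn and Gusb had the largest rises. The capitals mark CACGTG, which reads the same on both strands.
Mcoln1, chr8:3500269-3500568, plus strand: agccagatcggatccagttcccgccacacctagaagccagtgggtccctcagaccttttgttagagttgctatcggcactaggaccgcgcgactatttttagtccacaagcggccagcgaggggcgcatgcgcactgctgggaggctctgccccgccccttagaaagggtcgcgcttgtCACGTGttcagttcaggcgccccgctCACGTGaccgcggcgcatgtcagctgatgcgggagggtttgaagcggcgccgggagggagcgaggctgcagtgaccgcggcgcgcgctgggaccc
Ctsl, chr13:64370471-64370770, minus strand: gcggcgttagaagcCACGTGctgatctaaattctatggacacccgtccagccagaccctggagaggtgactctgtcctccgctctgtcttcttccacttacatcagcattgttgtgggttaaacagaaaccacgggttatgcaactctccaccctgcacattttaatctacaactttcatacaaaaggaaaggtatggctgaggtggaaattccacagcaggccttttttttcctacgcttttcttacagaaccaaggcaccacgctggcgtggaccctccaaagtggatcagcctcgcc
Gaa, chr11:119267713-119268012, plus strand: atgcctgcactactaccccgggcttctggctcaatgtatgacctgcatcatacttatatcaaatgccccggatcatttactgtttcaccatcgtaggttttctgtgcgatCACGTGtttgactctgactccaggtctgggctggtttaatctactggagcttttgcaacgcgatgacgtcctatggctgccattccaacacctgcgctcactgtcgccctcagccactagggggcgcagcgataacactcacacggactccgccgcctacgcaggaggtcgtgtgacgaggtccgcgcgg
Lgmn, chr12:102439043-102439342, minus strand: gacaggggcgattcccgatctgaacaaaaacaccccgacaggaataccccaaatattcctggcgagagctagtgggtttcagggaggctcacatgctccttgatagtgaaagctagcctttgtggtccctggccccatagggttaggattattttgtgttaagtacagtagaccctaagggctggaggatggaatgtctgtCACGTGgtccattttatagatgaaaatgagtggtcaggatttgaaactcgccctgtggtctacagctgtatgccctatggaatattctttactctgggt
Lgmn, chr12:102439679-102439978, minus strand: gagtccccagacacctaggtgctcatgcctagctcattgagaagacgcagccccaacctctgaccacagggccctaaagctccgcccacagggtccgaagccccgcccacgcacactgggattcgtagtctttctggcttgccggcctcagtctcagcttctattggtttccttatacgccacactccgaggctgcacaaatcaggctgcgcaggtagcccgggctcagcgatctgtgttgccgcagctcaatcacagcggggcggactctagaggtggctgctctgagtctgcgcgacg
Gusb, chr5:130003000-130003299, minus strand: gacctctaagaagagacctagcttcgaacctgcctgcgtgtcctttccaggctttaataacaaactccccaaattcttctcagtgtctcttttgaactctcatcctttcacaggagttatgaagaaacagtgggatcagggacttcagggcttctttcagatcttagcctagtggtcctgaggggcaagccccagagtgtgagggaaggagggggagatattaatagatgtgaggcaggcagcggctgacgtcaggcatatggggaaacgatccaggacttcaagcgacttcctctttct
In the Mcoln1 window the motif began at -71 and at -45 relative to the start, and the copy at -45 lies in the longer palindrome TCACGTGA. It began at -236 for Ctsl, at -140 for Gaa and at -49 in the first Lgmn window, while the other Lgmn window and the Gusb window did not hold these letters. Of all 32851 RefSeq windows of this length 7.15% held CACGTG, against 37.5% of the 32 windows of these genes, and the longer motif, which contains the shorter, was in 0.974% of all windows against 18.8%. Divided by the flox response to reloading, the motif was in the windows of 3 of 3 genes that fell, in 4 of 12 that rose (Atp6v0d1, Ctsa, Glb1 and Lgmn) and in 5 of 14 that were not called (Atp6v1a, Ctsd, Gla, Lamp1 and Naglu). A match of letters says nothing of whether a factor was bound.

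Total counts ran from 45069595 to 51592566 per library, and single libraries held between 117 counts (Glb1) and 43609 counts (Psap) of these genes. Levels below are CPM, counts scaled to a common library total, with totals adjusted by TMM factors. These were 1.065 to 1.095 in flox reloading libraries and 0.952 to 1.046 in the other libraries. The group mean was 1.083 in flox reloading and 0.975 to 1.003 in the other groups. Zfp697 had 1.48 to 1.95 CPM in mKO reloading and 2.33 to 2.80 CPM in flox reloading, 1.09 to 2.47 CPM in mKO unloading and 1.59 to 1.74 CPM in flox unloading, and 1.05 to 1.31 CPM in mKO control and 0.984 to 1.598 CPM in flox control. Its mKO minus flox difference at reloading was -0.61 ± 0.25 (adjusted p = 0.172) on the log2 scale, and since counts cover the whole gene and other cell types keep it, this does not test the genotype labels. All 10 muscle fibre markers were detected, with Acta1, skeletal alpha-actin, at a mean of 34420 CPM in mKO reloading and 29330 CPM in flox reloading. Tnnc2, a troponin C gene, was far lower than the others, at 2.09 CPM in mKO reloading and 1.70 CPM in flox reloading, and the reason was not tested.

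Per kilobase of exon, the members spanned more than 2 orders of magnitude in flox control muscle. Psap, the gene of the precursor of the lipid-binding saposins, was highest at 302 ± 15.5 CPM per kb (SD, n = 3), followed by the membrane glycoprotein gene Lamp1 at 149.6 ± 2.90 and the aspartic protease gene Ctsd at 101 ± 3.19. Next came Ctsb at 58.9 ± 1.41 and Gaa at 56.9 ± 5.30, whose ranges overlap, and the proton pump accessory subunit Atp6ap1 at 41.2 ± 1.16. The lowest were Glb1 at 1.26 ± 0.209, Gla at 1.21 ± 0.123 and Arsb at 0.687 ± 0.135, and the means of Glb1 and Gla differ by less than either SD. In flox reloading the top 4 held their places, while Lgmn stood at rank 7 with 34.5 CPM per kb, against rank 14 with 14.1 in flox control, and Gusb at rank 23 with 7.86, against rank 28 with 2.99. Exons of other genes cover 39.9% of the exon bases of Arsb, 34.4% of Ctsd, 26.9% of Ctsl, 17.4% of Ctsa and 12.8% each of Ctsb and Hexa. The other genes lie on the same strand for Ctsd, on both strands for Ctsl and on the opposite strand for the rest. The header names no strand option, and such an option would not separate genes on the same strand, so the levels of these genes are uncertain.

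**Figure D1:**
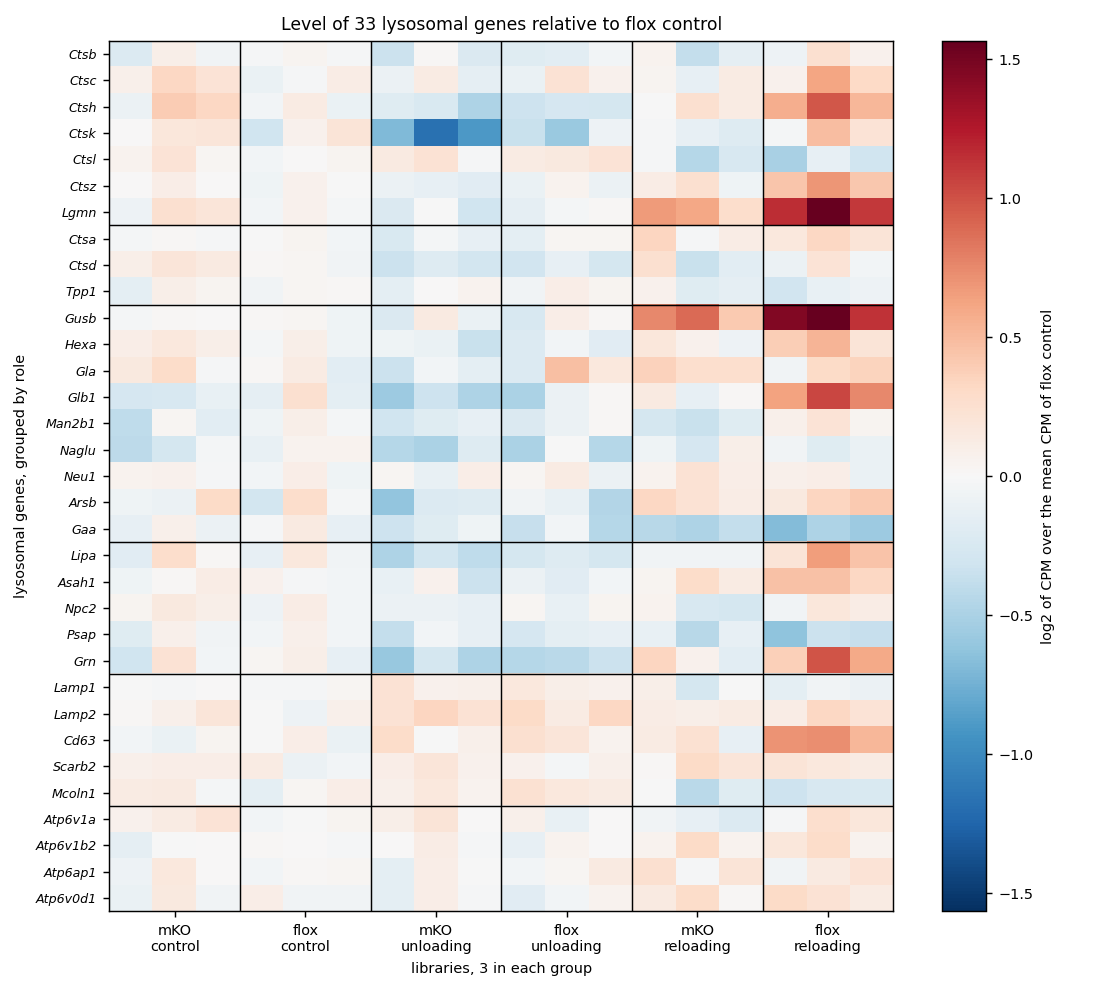
Heat map of the 33 genes (rows, by role in the order of the text) in the 18 libraries (columns, 3 per group), coloured by the log2 of the CPM of a library over the mean CPM of flox control. The strongest red is in the flox reloading columns of Lgmn and Gusb, the same rows are paler in mKO reloading, and the strongest blue is Ctsk in mKO unloading.

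Reloading after unloading moved the 33 genes in both directions. In mKO muscle 8 rose and 2 fell, while of the 17833 genes tested 9.53% rose and 8.81% fell, 18.3% in all. In flox muscle 14 rose and 3 fell, while 17% of all tested genes rose and 14.9% fell, 31.9% in all. A gene is called where the adjusted p of the edgeR quasi-likelihood test is under 0.05 over all tested genes, and changes are given as log2 fold changes ± SE. The median change of the 33 was 0.17 in mKO and 0.22 in flox, against 0.01 and 0.00 over all tested genes. The mKO count was 3 without mKO unloading replicate 1, and 5 without either mKO reloading replicate 2 or mKO unloading replicate 3. Leaving out single libraries gave 13 to 19 calls in flox. With total counts in place of TMM the median of all genes moved by 0.015 in mKO and by 0.109 in flox, and the calls were then 9 higher and 2 lower in mKO and 20 higher and 2 lower in flox. No called gene changed sign.

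**Figure D2:**
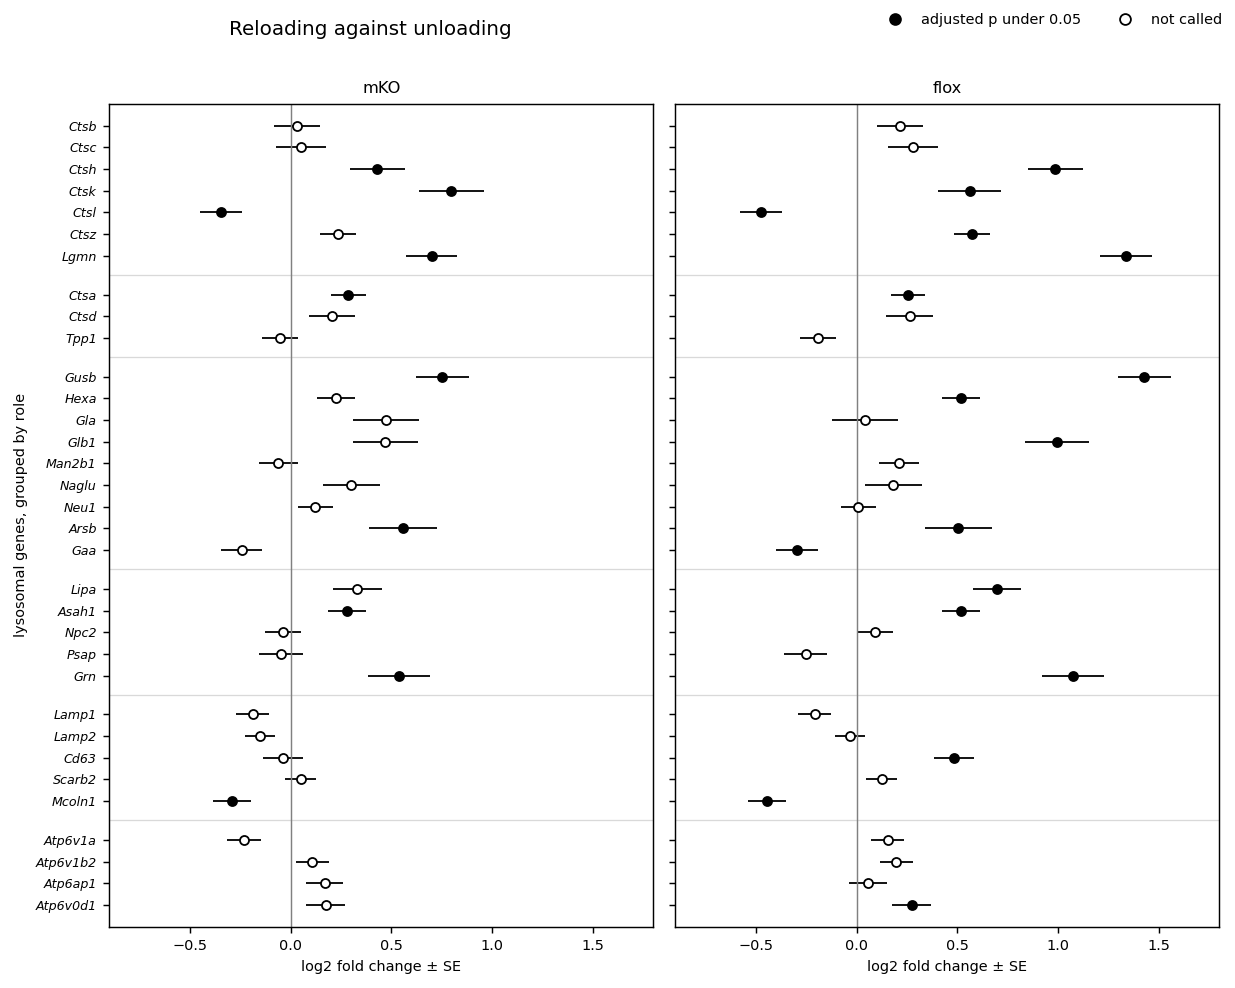
Log2 fold change of reloading against unloading in mKO (left) and flox muscle (right) for the 33 genes, grouped by role, with bars of 1 SE from the fit of all 18 libraries. Filled points passed the adjusted p of 0.05, 10 in mKO and 17 in flox, and Gusb and Lgmn lie farthest to the right in flox at 1.43 and 1.34.

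Macrophage markers, from a list that shares no gene with the 33, moved in the same comparisons. Of 25 macrophage and monocyte markers, 5 rose and 0 fell on reloading in mKO, and 20 rose and 1 fell in flox, Cx3cr1 by 1.24 ± 0.39 in mKO and 3.46 ± 0.40 in flox. At reloading 19 of 25 were lower in mKO and 0 were higher, with a median of -1.18, and this count was 7 without mKO reloading replicate 3 and 9 without flox reloading replicate 2. The mKO count of 5 was 2 without mKO unloading replicate 3 or mKO reloading replicate 2, 3 without mKO unloading replicate 1 and 8 without mKO control replicate 1. Their summed level was 191 to 278 CPM in mKO control, 161 to 221 in mKO unloading and 224 to 307 in mKO reloading. In flox it was 236 to 247 CPM at control, 228 to 249 at unloading and 423 to 625 at reloading. No marker of the list was at 0 in all libraries. Cd68, a lysosomal membrane glycoprotein gene used as a macrophage marker, averaged 11.4 ± 5.60 CPM in mKO reloading and 35.4 ± 3.93 CPM in flox reloading (SD, n = 3 each), against 2.97 ± 0.569 CPM in mKO unloading and 3.84 ± 0.412 CPM in flox unloading. The replicate with the highest summed markers was replicate 2 in flox reloading, at 625 CPM. Among the 3 it was also highest for Lgmn, Ctsh, Ctsz, Gusb, Glb1, Grn and Cd63. The same library was highest for Ctsl, Gaa and Psap, which were lower than in flox control. Its sum of the 33 genes was highest too, at 3612 CPM against 3084 and 3306. In mKO reloading the replicate with the highest summed markers was replicate 2 as well, at 307 CPM. That library was highest for Ctsh, Ctsz, Gusb and Cd63 but not for Lgmn, Glb1 or Grn. Its sum of the 33 genes was the lowest of the 3, at 2950 CPM against 3457 and 3221. The part of these markers in the results was not tested, and in bulk RNA fewer cells of a type and less RNA per cell cannot be told apart.

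Among the cysteine proteases, Lgmn, Ctsh and Ctsk rose and Ctsl fell on reloading in both genotypes, and Ctsz rose in flox. Lgmn encodes legumain, an asparaginyl endopeptidase that also processes cathepsins. In mKO muscle Lgmn had 30.9, 39.1 and 37.3 CPM at control, 28.0, 32.8 and 26.3 CPM at unloading and 52.0, 49.7 and 39.8 CPM at reloading. In flox muscle it had 31.9, 34.4 and 32.0 CPM at control, 29.8, 32.1 and 33.3 CPM at unloading and 72.8, 97.0 and 70.6 CPM at reloading. All 3 flox reloading libraries lay above each of the other 15, and the mKO reloading libraries lay above those of the other mKO groups. The change from unloading was 0.70 ± 0.13 (adjusted p = 0.00105) in mKO and 1.34 ± 0.13 (adjusted p = 8.37e-07) in flox.

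Ctsh, the gene of the aminopeptidase cathepsin H, had 10.8, 15.2 and 14.4 CPM at control, 10.1, 9.74 and 8.25 CPM at unloading and 11.5, 13.7 and 12.6 CPM at reloading in mKO muscle. The flox values were 11.2, 12.6 and 10.7 CPM at control, 9.18, 9.64 and 9.52 CPM at unloading and 17.03, 22.6 and 16.5 CPM at reloading. Again the 3 flox reloading libraries stood above all others, whereas the mKO reloading libraries cleared those of mKO unloading but fell within the range of mKO control. The rise over unloading was 0.43 ± 0.14 (adjusted p = 0.0343) in mKO and 0.99 ± 0.13 (adjusted p = 3e-05) in flox. Without mKO unloading replicate 1 or 3 or mKO reloading replicate 2 or 3 the mKO call was lost (adjusted p up to 0.152).

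Ctsz encodes cathepsin Z, a carboxypeptidase. Libraries of mKO muscle held 26.3, 28.2 and 26.4 CPM at control, 24.6, 23.9 and 23.1 CPM at unloading and 28.4, 31.1 and 24.9 CPM at reloading. Those of flox muscle held 25.1, 27.4 and 26.1 CPM at control, 24.3, 27.3 and 24.5 CPM at unloading and 35.4, 42.5 and 35.1 CPM at reloading. The flox reloading libraries were the 3 highest of the 18, and the mKO reloading libraries were above those of mKO unloading. The change of Ctsz was 0.24 ± 0.09 (adjusted p = 0.0784) in mKO, which was not called, and 0.57 ± 0.09 (adjusted p = 0.000114) in flox, where it rose.

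Ctsl, the gene of the endopeptidase cathepsin L and among the more abundant of this group, went the other way. It measured 156, 173.5 and 153 CPM at control, 165, 175 and 149 CPM at unloading and 148, 110.1 and 126 CPM at reloading in mKO libraries. In flox libraries it measured 145, 151 and 154 CPM at control, 164.5, 166 and 174 CPM at unloading and 105, 138 and 121 CPM at reloading. Reloading libraries lay below those of unloading and of control in each genotype, without overlap. The change from unloading was -0.35 ± 0.10 (adjusted p = 0.0264) in mKO and -0.47 ± 0.10 (adjusted p = 0.00199) in flox, and the mKO call was lost without mKO unloading replicate 1 or 2 or mKO reloading replicate 2 or 3 (adjusted p up to 0.132).

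Ctsk, the gene of the collagen-degrading cathepsin K, rose by 0.80 ± 0.16 (adjusted p = 0.00240) in mKO and by 0.56 ± 0.16 (adjusted p = 0.0109) in flox. The flox call was lost without flox unloading replicate 2 or flox reloading replicate 2 (adjusted p up to 0.0785). The dipeptidyl peptidase gene Ctsc (0.05 ± 0.12 in mKO and 0.28 ± 0.12 in flox) and Ctsb, the most abundant cathepsin gene of the group (0.03 ± 0.12 and 0.22 ± 0.12 in the same order), were not called. The 7 genes together had a median change of 0.24 in mKO and 0.56 in flox.

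Of the 3 aspartic and serine protease genes Ctsa rose on reloading in both genotypes and the other two were not called. Ctsa encodes cathepsin A, a carboxypeptidase that also protects lysosomal beta-galactosidase and sialidase. It rose by 0.28 ± 0.09 (adjusted p = 0.0276) in mKO and 0.25 ± 0.09 (adjusted p = 0.0309) in flox. Both calls depended on single libraries: the mKO call was lost without mKO unloading replicate 1 or 3 or mKO reloading replicate 1 (adjusted p up to 0.163), and the flox call without flox unloading replicate 1 or flox reloading replicate 2 (adjusted p up to 0.151).

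Ctsd, the gene of the main aspartic protease of lysosomes, had 254, 270.5 and 261 CPM at control, 187.5, 207 and 195 CPM at unloading and 282, 186 and 211 CPM at reloading in mKO libraries. For flox the values were 241, 242 and 229 CPM at control, 192, 218 and 196.5 CPM at unloading and 223, 275 and 229.7 CPM at reloading. The mKO reloading libraries spread from below the lowest to above the highest of mKO unloading, and the flox reloading libraries were above those of flox unloading without passing the test, at 0.26 ± 0.12 (adjusted p = 0.0922). Tpp1, which encodes a tripeptidyl peptidase, had 66.4, 79.0 and 76.1 CPM at control, 66.5, 74.1 and 76.6 CPM at unloading and 77.3, 64.8 and 67.2 CPM at reloading in mKO. It had 71.2, 75.8 and 75.2 CPM at control, 71.3, 79.7 and 76.4 CPM at unloading and 60.0, 68.6 and 70.3 CPM at reloading in flox. Its mKO groups overlapped, and its flox reloading libraries lay just below those of flox unloading, with a change of -0.19 ± 0.09 (adjusted p = 0.106).

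Glycosidase genes held both the largest rise in flox and a fall. Gusb, Glb1, Hexa and Arsb rose and Gaa fell on reloading in flox, and Gusb and Arsb rose in mKO. Gusb encodes beta-glucuronidase, which trims glycosaminoglycans. In mKO muscle it had 13.3, 13.8 and 13.7 CPM at control, 11.6, 15.1 and 12.7 CPM at unloading and 22.9, 25.2 and 18.03 CPM at reloading. In flox muscle it had 13.8, 13.9 and 13.1 CPM at control, 11.4, 14.7 and 13.8 CPM at unloading and 37.3, 40.1 and 29.8 CPM at reloading. Control and unloading libraries of both genotypes all lay under 16 CPM, the 3 mKO reloading libraries lay above them, and the 3 flox reloading libraries lay above those. Gusb rose over unloading by 0.75 ± 0.13 (adjusted p = 0.000772) in mKO and by 1.43 ± 0.13 (adjusted p = 6.14e-07) in flox.

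Glb1, the gene of lysosomal beta-galactosidase, was among the lowest of the 33, with 117 counts in its lowest library. It stood at 3.15, 3.18 and 3.47 CPM at control, 2.56, 3.00 and 2.69 CPM at unloading and 4.16, 3.45 and 3.83 CPM at reloading in mKO libraries. It stood at 3.43, 4.50 and 3.40 CPM at control, 2.68, 3.56 and 3.82 CPM at unloading and 5.83, 7.80 and 6.38 CPM at reloading in flox libraries. Every flox reloading library exceeded all others, and the mKO reloading libraries exceeded those of mKO unloading. The change was 0.47 ± 0.16 (adjusted p = 0.0529) in mKO, which did not pass, and 0.99 ± 0.16 (adjusted p = 0.00013) in flox.

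Gaa encodes acid alpha-glucosidase, the enzyme that clears lysosomal glycogen, and was the most abundant glycosidase gene here. Its mKO values were 248.5, 287 and 255 CPM at control, 218, 239 and 261 CPM at unloading and 202, 194 and 209.6 CPM at reloading. Its flox values were 268, 299 and 249 CPM at control, 211, 263 and 199 CPM at unloading and 169.8, 195 and 183 CPM at reloading. In both genotypes the reloading libraries were below all libraries of unloading and of control. The change from unloading was -0.24 ± 0.10 (adjusted p = 0.112) in mKO, which was not called, and -0.30 ± 0.10 (adjusted p = 0.0345) in flox. The flox call was lost without flox unloading replicate 2 or flox reloading replicate 1 or 3 (adjusted p up to 0.234) and with total counts, while against control the fall in flox was larger, at -0.58 ± 0.10 (adjusted p = 0.000663).

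Hexa, the gene of the alpha subunit of beta-hexosaminidase, had 0.23 ± 0.09 in mKO, which was not called, and rose by 0.52 ± 0.09 (adjusted p = 0.000407) in flox. Arsb, the gene of arylsulfatase B, rose by 0.56 ± 0.17 (adjusted p = 0.0282) in mKO and 0.50 ± 0.17 (adjusted p = 0.0275) in flox. Each Arsb call was lost without any of 3 single libraries: mKO unloading replicate 1 and mKO reloading replicates 1 and 2 for mKO, and flox unloading replicate 3 and flox reloading replicates 2 and 3 for flox (adjusted p up to 0.139 and 0.121). Gla, Man2b1, Naglu and Neu1, which encode alpha-galactosidase A, the lysosomal alpha-mannosidase, an N-acetylglucosaminidase and a sialidase, were not called in either genotype. Their changes ran from -0.06 ± 0.10 (Man2b1) to 0.47 ± 0.16 (Gla) in mKO, and from 0.01 ± 0.09 (Neu1) to 0.21 ± 0.10 (Man2b1) in flox.

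Among the lipid enzymes and soluble cofactors, Grn and Asah1 rose on reloading in both genotypes and Lipa rose in flox. Grn encodes progranulin, which is split into granulins in the lysosome and supports hydrolase function. In mKO libraries Grn had 29.7, 43.1 and 36.0 CPM at control, 24.5, 30.5 and 26.5 CPM at unloading and 46.8, 38.7 and 32.96 CPM at reloading. In flox libraries it had 37.7, 39.3 and 33.8 CPM at control, 27.1, 27.6 and 29.3 CPM at unloading and 47.9, 73.0 and 55.8 CPM at reloading. Reloading libraries were above those of unloading in each genotype, and at reloading the lowest flox library was still above the highest mKO library. The change was 0.54 ± 0.15 (adjusted p = 0.0201) in mKO and 1.07 ± 0.15 (adjusted p = 4.63e-05) in flox. The mKO call was lost without mKO unloading replicate 1 or 3 or mKO reloading replicate 1 (adjusted p up to 0.111).

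Psap had 726, 877 and 798.5 CPM at control, 637.5, 806 and 757 CPM at unloading and 762, 612 and 757 CPM at reloading in mKO muscle. In flox muscle Psap had 804, 877 and 804 CPM at control, 689.6, 746 and 755 CPM at unloading and 537, 658 and 643 CPM at reloading. Flox reloading libraries lay below all flox unloading and flox control libraries, and the mKO groups overlapped. Against unloading the flox change of -0.25 ± 0.11 (adjusted p = 0.0845) did not pass, and against control it did, at -0.44 ± 0.11 (adjusted p = 0.00726).

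Lipa, the gene of lysosomal acid lipase, which frees cholesterol from its esters, had 12.1, 12.2 and 12.1 CPM in mKO reloading and 14.4, 19.9 and 17.2 CPM in flox reloading. Unloading libraries held 8.997, 10.3 and 9.60 CPM in mKO and 10.4, 10.9 and 10.4 CPM in flox. Its change was 0.33 ± 0.12 (adjusted p = 0.0682) in mKO, which was not called, and 0.70 ± 0.12 (adjusted p = 0.000259) in flox, although reloading and unloading libraries did not overlap in either genotype. Asah1, the gene of acid ceramidase, rose by 0.28 ± 0.09 (adjusted p = 0.0452) in mKO, a call lost without any of 14 single libraries (adjusted p up to 0.227), and by 0.52 ± 0.09 (adjusted p = 0.000384) in flox. Npc2, the gene of a cholesterol carrier, was not called, at -0.04 ± 0.09 in mKO and 0.09 ± 0.09 in flox.

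The membrane proteins split. Cd63, the gene of a tetraspanin of late endosomes and lysosomes, rose in flox, and Mcoln1, the gene of the calcium-releasing channel TRPML1, fell in both genotypes. Cd63 had 73.2, 70.0 and 77.7 CPM at control, 91.8, 74.7 and 79.7 CPM at unloading and 82.1, 88.8 and 68.7 CPM at reloading in mKO libraries. In flox libraries Cd63 had 75.0, 80.9 and 69.8 CPM at control, 89.8, 85.8 and 78.4 CPM at unloading and 122, 125 and 108 CPM at reloading. The flox reloading libraries were the 3 highest of all 18, and mKO reloading overlapped mKO unloading. The change was -0.04 ± 0.10 (adjusted p = 0.832) in mKO and 0.48 ± 0.10 (adjusted p = 0.00115) in flox.

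Mcoln1, whose promoter window with 2 E-boxes is printed above, had 32.8, 33.2 and 29.4 CPM at control, 31.6, 33.8 and 31.1 CPM at unloading and 30.0, 22.5 and 26.4 CPM at reloading in mKO. In flox it had 27.1, 30.7 and 32.4 CPM at control, 35.6, 33.7 and 32.8 CPM at unloading and 24.1, 25.4 and 25.5 CPM at reloading. Reloading libraries were below unloading libraries in both genotypes without overlap. It fell by -0.29 ± 0.09 and -0.45 ± 0.09 as signed log2 changes in mKO and flox (adjusted p = 0.0380 in mKO, adjusted p = 0.00143 in flox). The mKO call was lost without any of mKO unloading replicates 1 to 3 or mKO reloading replicates 2 and 3 (adjusted p up to 0.183). Lamp1, Lamp2 and Scarb2, which encode the major membrane glycoproteins and the carrier of glucocerebrosidase, were not called in this comparison, with changes of -0.19 ± 0.08 (Lamp1) to 0.05 ± 0.08 (Scarb2) in mKO and -0.21 ± 0.08 (Lamp1) to 0.12 ± 0.08 (Scarb2) in flox.

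Of the 4 proton pump genes 1 rose on reloading, in flox. This was Atp6v0d1, the gene of a subunit of the membrane sector, with 0.17 ± 0.10 (adjusted p = 0.232) in mKO, which was not called, and 0.27 ± 0.10 (adjusted p = 0.0366) in flox. Its libraries had 26.6, 31.9 and 27.4 CPM at control, 25.6, 30.8 and 28.2 CPM at unloading and 31.4, 35.0 and 29.0 CPM at reloading in mKO. Flox libraries had 30.6, 27.5 and 27.6 CPM at control, 25.3, 27.8 and 29.6 CPM at unloading and 35.3, 33.4 and 31.2 CPM at reloading. Flox reloading libraries lay above those of flox unloading and of flox control, and the mKO reloading and unloading libraries overlapped. The flox call was lost without flox unloading replicate 1 or 2 or flox reloading replicate 1 or 2 (adjusted p up to 0.166), and the difference between genotypes was not called.

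Atp6ap1, an accessory subunit, overlapped between reloading and unloading in both genotypes. It had 118, 140.0 and 125 CPM at control, 112, 134 and 124 CPM at unloading and 149, 123 and 144 CPM at reloading in mKO. The flox libraries had 121, 126 and 127 CPM at control, 121, 127 and 137 CPM at unloading and 119.9, 137 and 144 CPM at reloading. Its changes were 0.17 ± 0.09 (adjusted p = 0.235) in mKO and 0.06 ± 0.09 (adjusted p = 0.687) in flox. The cytoplasmic sector subunits Atp6v1a (-0.23 ± 0.08 in mKO, 0.15 ± 0.08 in flox) and Atp6v1b2 (0.11 ± 0.08 in mKO, 0.20 ± 0.08 in flox) were not called.

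**Figure D3:**
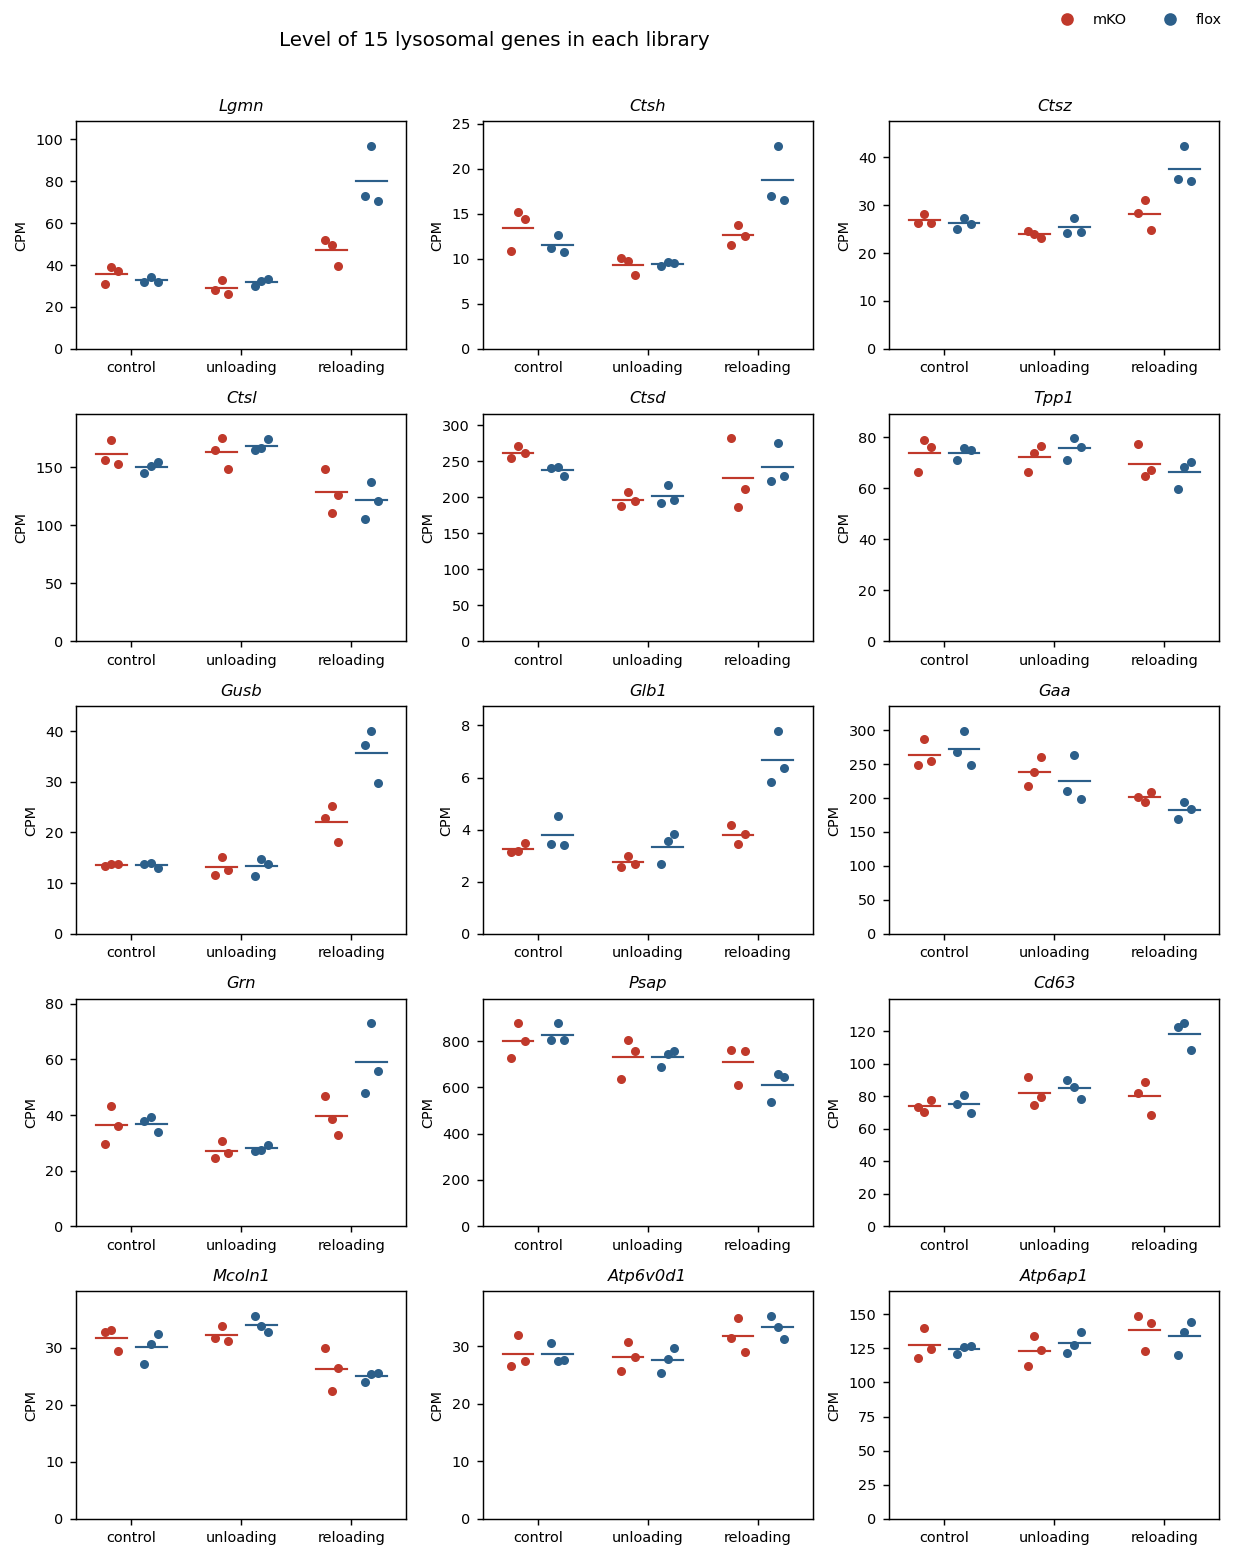
Level (CPM, axes from 0) of 15 of the 33 genes in every library at control, unloading and reloading, with mKO libraries (red) left of flox libraries (blue) and short lines at the mean of the 3 libraries. The flox reloading libraries stand alone at the top for Lgmn, Ctsh, Ctsz, Gusb, Glb1, Grn and Cd63, while Ctsl, Gaa and Mcoln1 are lower at reloading than at unloading in both genotypes.

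Reloading was also set against muscle that was never unloaded. In mKO muscle 1 of the 33 genes rose and 0 fell, while 1.34% of all tested genes rose and 0.841% fell, 2.18% in all. That gene was Gusb (0.70 ± 0.13, adjusted p = 0.0103), and without mKO reloading replicate 2 it was not called (adjusted p = 0.0782), which left 0 calls by edgeR. Without mKO reloading replicate 1 there were 5 calls, and without flox unloading replicate 2 or 3 there were 2. In flox muscle 12 rose and 4 fell, while 12.3% of all tested genes rose and 10.3% fell, 22.6% in all. With total counts, which moved the median of all genes by 0.146, 19 rose and 2 fell. The rises were led by Gusb (1.39 ± 0.13), Lgmn (1.29 ± 0.13), Glb1 (0.82 ± 0.16), Ctsh (0.70 ± 0.13), Grn (0.67 ± 0.15) and Cd63 (0.66 ± 0.10).

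Smaller rises over flox control were those of Ctsz (0.52 ± 0.09), Lipa (0.45 ± 0.12), Asah1 (0.42 ± 0.09), Hexa (0.38 ± 0.09), Ctsc (0.35 ± 0.12) and Lamp2 (0.22 ± 0.07). The falls were those of Gaa (-0.58 ± 0.10), Psap (-0.44 ± 0.11), Ctsl (-0.31 ± 0.10) and Mcoln1 (-0.27 ± 0.09). Of the 16 flox calls 10 stood without each single library. The other 6 were Ctsc (adjusted p up to 0.318), Ctsl (0.181), Hexa (0.0570), Lipa (0.0897), Lamp2 (0.208) and Mcoln1 (0.184). Flox reloading replicate 2 gave that highest value for Ctsc, Hexa, Lipa and Lamp2. Among flox reloading libraries it had the highest summed macrophage markers and also the highest sum of the 33 genes. The largest of the 6 group means was flox reloading for 19 of the 33 genes, and for 28.2% of all tested genes.

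Unloading itself was followed by calls in mKO muscle. There 4 of the 33 genes fell and 0 rose, while 3.66% of all tested genes fell and 4.09% rose, 7.75% in all. Ctsk had 6.62, 4.78 and 5.75 CPM in mKO unloading, against 10.8, 12.1 and 12.2 CPM in mKO control. It had 8.44, 7.16 and 10.2 CPM in flox unloading, against 8.62, 11.2 and 12.3 CPM in flox control. The mKO libraries did not overlap and the flox libraries did. Ctsk fell by -1.04 ± 0.16 (adjusted p = 0.00119) in mKO, as a signed log2 change, and the flox value was -0.32 ± 0.16 (adjusted p = 0.266). The other falls in mKO were those of Ctsh (-0.52 ± 0.14), Lipa (-0.44 ± 0.12) and Ctsd (-0.41 ± 0.12). Only Ctsk remained called, so that the count was 1, without mKO control replicate 2 or 3 or without mKO unloading replicate 1 or 3, and Ctsd was lost without mKO control replicate 1 as well.

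In flox muscle 0 of the 33 genes were called after unloading by edgeR, while 2.67% of all tested genes rose and 3.07% fell, 5.74% in all. At an unadjusted p under 0.05 there were 5, DESeq2 called 1, and without flox unloading replicate 2 edgeR called 2. The smallest p was that of Lamp2 (0.25 ± 0.07, adjusted p = 0.0518), which was called with total counts. The interaction of genotype with unloading called 0 of the 33 and 0 of all tested genes by edgeR and by DESeq2, with 2 of the 33 at an unadjusted p under 0.05. The smallest of the 6 group means was mKO unloading for 18 of the 33 genes, and for 19.4% of all tested genes.

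Few markers of other cell types were called on unloading, where 7.75% of all tested genes were called in mKO and 5.74% in flox. Of 8 fibro-adipogenic progenitor markers, 2 fell in mKO and 1 fell in flox, and 0 rose in either. Lum, the gene of lumican, fell in mKO by -0.76 ± 0.14 (adjusted p = 0.00394), as a signed log2 change, and had -0.49 ± 0.14 (adjusted p = 0.0524) in flox. Cd34, the gene of a surface sialomucin, fell by -0.45 ± 0.07 (adjusted p = 0.00178) in mKO and -0.42 ± 0.07 (adjusted p = 0.00315) in flox. The mKO count was 2 without each single library, and the flox count was 2 without flox control replicate 1, flox unloading replicate 3, flox reloading replicate 1 or mKO reloading replicate 2. The summed level of the 8 was 2087 to 2338 CPM in mKO unloading, against 1991 to 2652 CPM in mKO control. It was 2058 to 2677 CPM in flox unloading, against 2062 to 2433 CPM in flox control, so the sums overlapped. These sums follow mainly Gsn and Dcn, which were not called on unloading. They averaged 1335 and 602 CPM in mKO unloading and 1408 and 655 CPM in flox unloading. Of 25 macrophage and monocyte markers, 1 fell in mKO, C1qa by -0.62 ± 0.18 (adjusted p = 0.0470), and 0 in flox. The mKO count was 0 with total counts and without any of 12 single libraries, 2 without flox reloading replicate 2 or 3 or mKO reloading replicate 2, and 3 without mKO control replicate 1. At an unadjusted p under 0.05 there were 7 in mKO and 0 in flox, and the medians were -0.35 in mKO and -0.03 in flox. Of 10 muscle fibre markers 1 fell in mKO, Myh2, a fast myosin heavy chain gene, by -0.96 ± 0.29, a call lost without any of 14 single libraries. In flox 1 fell, Acta1 by -0.69 ± 0.19, a call lost without flox control replicate 1 or 2, flox unloading replicate 1 or flox reloading replicate 2. Of 6 endothelial and 5 satellite cell and myoblast markers edgeR called 0 in either genotype. At an unadjusted p under 0.05 there were 1 endothelial marker and 1 of the 5, Des, in mKO, and 1 and 0 in flox. The endothelial count in mKO was 1 with total counts. The part of these markers in the falls of the 33 genes was not tested.

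Between genotypes, calls among the 33 genes were made at reloading and at no other condition. At control, edgeR and DESeq2 each called 0 of the 33 and 0 of all tested genes, with 0 of the 33 and 718 of all genes at an unadjusted p under 0.05. At unloading both again called 0 of the 33 and 0 of all, with 1 of the 33 and 816 of all genes at an unadjusted p under 0.05. At reloading 9 of the 33 were lower in mKO and 0 were higher, while 3.85% of all tested genes were lower and 1.06% higher, 4.91% in all. They were Glb1 (-0.81 ± 0.16), Lgmn (-0.77 ± 0.13), Gusb (-0.70 ± 0.13), Grn (-0.58 ± 0.15), Ctsh (-0.57 ± 0.13), Cd63 (-0.57 ± 0.10), Lipa (-0.50 ± 0.12), Ctsz (-0.42 ± 0.09) and Man2b1 (-0.39 ± 0.10).

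Every mKO reloading library was below every flox reloading library for 12 of the 33 genes, these 9 with Hexa, Asah1 and Atp6v1a, and for 12.8% of all tested genes. Man2b1, which did not pass in any comparison of conditions, had 20.1, 19.2 and 21.4 CPM in mKO reloading and 25.8, 28.4 and 25.1 CPM in flox reloading. The genes that fell on reloading were not called between genotypes, with 0.08 ± 0.10 for Ctsl, 0.15 ± 0.10 for Gaa and 0.07 ± 0.09 for Mcoln1. The proton pump genes ran from -0.28 ± 0.08 (Atp6v1a) to 0.05 ± 0.09 (Atp6ap1), none called.

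The count of 9 rested in part on single libraries and on scaling. It was 2 without mKO reloading replicate 3 and 3 without flox reloading replicate 2. Lgmn (adjusted p up to 0.0303) and Cd63 (up to 0.0419) stayed called without each single library. Gusb was lost without mKO reloading replicate 3 (adjusted p = 0.0519), and Glb1 and Ctsz without that library or flox reloading replicate 2 (adjusted p up to 0.0622 and 0.0971). Ctsh and Lipa were also lost without mKO reloading replicate 1, Grn without mKO reloading replicate 2, and Man2b1 without any of 5 libraries. Total counts moved the median of all genes by -0.134 and gave 15 lower, the added ones being Ctsb, Ctsc, Hexa, Asah1, Npc2 and Atp6v1a. A model of the reloading libraries alone gave 4. The summed macrophage markers were also lower in mKO at reloading, at 224 to 307 CPM against 423 to 625 CPM in flox. Their part in the difference was not tested.

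**Figure D4:**
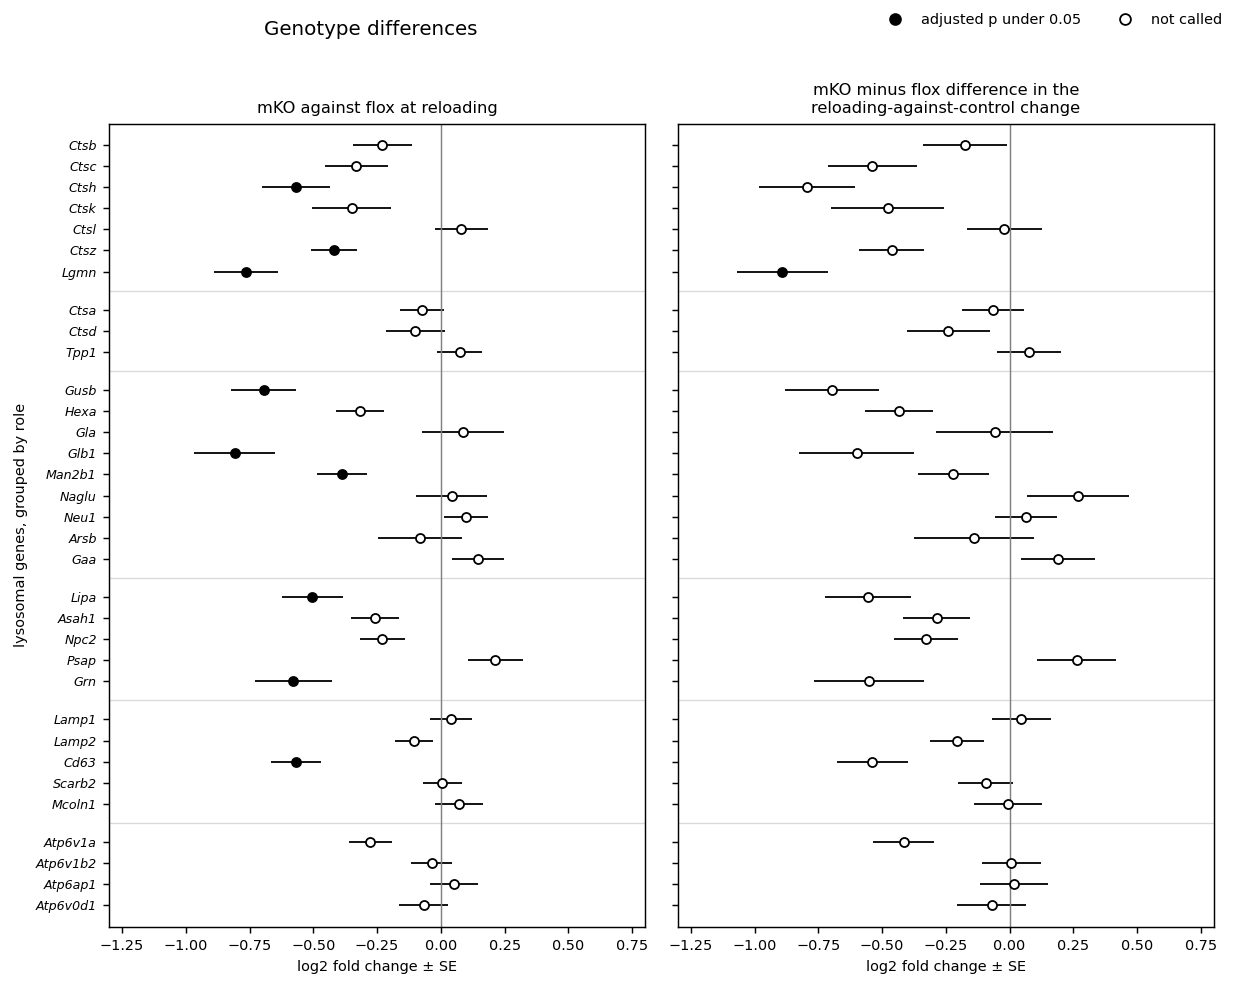
Log2 fold change of mKO against flox at reloading (left) and the mKO minus flox difference of the reloading-against-control change (right) for the 33 genes, with bars of 1 SE. The 9 filled points on the left all lie below 0, and the single filled point on the right is Lgmn at -0.89.

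Whether the response itself differed by genotype was tested as an interaction. For reloading against control 1 of the 33 genes passed, while 0.499% of all tested genes were called with a lower and 0.0224% with a higher change in mKO, 0.522% in all. The change of Lgmn was 0.40 ± 0.13 in mKO and 1.29 ± 0.13 in flox, a difference of -0.89 ± 0.18 (adjusted p = 0.0345). The Lgmn difference was not called without any of flox control replicates 1 to 3, mKO control replicates 2 and 3, flox reloading replicates 1 and 2 or mKO reloading replicates 1 and 3 (adjusted p up to 0.126). The count was 2 without mKO control replicate 1, 3 without flox reloading replicate 3, 5 without mKO reloading replicate 2 and 7 with total counts. The next smallest p were those of Ctsh (-0.79 ± 0.19, adjusted p = 0.0612), Cd63 (-0.54 ± 0.14, adjusted p = 0.0881) and Gusb (-0.70 ± 0.18, adjusted p = 0.0892). For reloading against unloading edgeR called 0 of the 33 and 0 of all tested genes, with 10 of the 33 and 1873 of all genes at an unadjusted p under 0.05, and DESeq2 called 1 of the 33. These contrasts share libraries with those above and are not separate evidence.

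The authors' deposited table for mKO reloading against control, which by the ranks of its p-values holds the genotype interaction, lists 6 of the 33 at an adjusted p under 0.05. In the authors' deposited table these are Lgmn at -0.77 (adjusted p = 0.00112), Ctsh at -0.55, Gusb at -0.39, Cd63 at -0.33, Ctsz at -0.27 and Atp6v1a at -0.25 as log2 fold changes. In the authors' deposited table for mKO reloading against unloading the only one is Cd63 at -0.31 (adjusted p = 0.0492). The authors' deposited tables for mKO unloading against control and for mKO control against wild-type control list 0 of the 33 at that level. The log2 values of the authors' deposited tables are smaller in size than those of the fit used here, which gave -0.46 ± 0.13 for the Ctsz and -0.70 ± 0.18 for the Gusb interaction. In the authors' deposited tables without calls they run from -0.0003 to 0.0002 for unloading and from -0.0015 to 0.0018 at control, where the fit used here ran from -0.71 to 0.15 for the interaction with unloading and from -0.23 to 0.22 at control. In those deposited tables the SE is 0.0048 for each of the 33 for unloading, and 0.0103 or 0.0104 at control. Their p-values still ranked genes much as DESeq2 did here, with rank correlations of 0.969 and 0.998. The deposited log2 values are therefore not on the scale of the fit used here and cannot be compared with it in size.

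Other genes of the lysosome were counted from lists of genes that are not among the 33. For these and the lists that follow, 18.3% of all tested genes were called on reloading in mKO and 31.9% in flox. Between genotypes at reloading 3.85% of all tested genes were lower in mKO and 1.06% higher. The hydrolase count in mKO and the counts of membrane and transport genes lay near the shares for reloading. Of 33 other lysosomal hydrolases tested, 4 rose and 2 fell on reloading in mKO, and 9 rose and 5 fell in flox, or 16 and 3 in flox with total counts. Ctss, the gene of cathepsin S of antigen-presenting cells, had 0.34 ± 0.22 in mKO and 1.38 ± 0.21 in flox, Galns, a sulfatase gene, had 0.96 ± 0.23 in mKO and 1.25 ± 0.22 in flox, and the carboxypeptidase gene Prcp had 0.58 ± 0.10 in mKO and 1.10 ± 0.10 in flox. At reloading 4 of these other hydrolases were lower in mKO than in flox, and 0 were higher. Among the 4 were Ctss by -1.44 ± 0.21, Prcp by -0.75 ± 0.10 and Galns by -0.76 ± 0.21. The count of 4 was 2 without any of 13 single libraries, control and unloading libraries included, 2 or 3 without each of the 18, and 7 with total counts. The flox count of 14 was 9 without flox unloading replicate 2.

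Of 19 other lysosomal membrane and transport genes tested, 2 rose and 2 fell in mKO, and 2 rose and 4 fell in flox, or 6 and 1 in flox with total counts. The mKO rises were 0 without mKO unloading replicate 1 or mKO reloading replicate 3, and the flox falls were 1 without flox reloading replicate 1. Npc1, the cholesterol exporter gene, fell most, with -0.84 ± 0.10 in mKO and -0.82 ± 0.10 in flox. Tpcn2, a cation channel gene, and Slc29a3, a nucleoside transporter gene, had 0.19 ± 0.15 and 0.11 ± 0.12 in mKO, and 0.61 ± 0.15 and 0.60 ± 0.12 in flox, in that order of genes. Of 15 other V-ATPase genes, 0 rose and 1 fell in mKO, and 2 rose and 4 fell in flox, or 3 and 1 with total counts, and with single libraries left out 1 to 2 rose and 2 to 5 fell in flox. In mKO 0 fell without mKO unloading replicate 1 or 2 or mKO reloading replicate 2 or 3, and 2 fell without mKO reloading replicate 1. Atp6v0e2 had -0.23 ± 0.11 in mKO and -0.57 ± 0.11 in flox. Tcirg1, the a3 subunit gene of osteoclasts and macrophages, had -0.03 ± 0.12 in mKO and 0.57 ± 0.12 in flox, and Atp6ap2 had 0.02 ± 0.09 in mKO and 0.32 ± 0.09 in flox. At reloading 1 of the 15 was higher in mKO than in flox and 2 were lower, or 0 and 4 with total counts, and leaving out any reloading library other than flox replicate 3 moved that count by over 1.5 times, to between 1 and 5 in all.

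Of 12 sorting genes, 0 rose and 1 fell in mKO, or 1 and 0 with total counts, and 2 rose and 3 fell in flox, or 3 and 0 with total counts. The mKO count was 0 without mKO unloading replicate 3 or mKO reloading replicate 1 or 2, and 1 rose and 1 fell without mKO control replicate 1 or 2. The flox count of 5 was 2 without flox unloading replicate 1 and 3 without flox reloading replicate 1 or 3. Igf2r, the gene of the large mannose 6-phosphate receptor, had 0.33 ± 0.12 in mKO and 0.60 ± 0.12 in flox, while Gnptg had -0.16 ± 0.10 and -0.35 ± 0.10 and Sort1 -0.28 ± 0.09 and -0.34 ± 0.09 in the same order. Of 14 regulators of lysosome number and signalling, 0 rose and 1 fell in mKO, and 1 rose and 4 fell in flox, or 1 and 1 with total counts. In mKO 2 fell without mKO control replicate 2 or 3, mKO unloading replicate 2 or flox unloading replicate 3. The flox count of 5 was 3 without flox unloading replicate 1 or 2 or flox reloading replicate 2, and 2 without flox reloading replicate 3. Tfeb, the gene of the main activator of lysosomal genes, had -0.42 ± 0.17 (adjusted p = 0.0965) in mKO and fell by -0.77 ± 0.17 (adjusted p = 0.00233) in flox, as signed log2 changes. Tfec, a related gene that averaged 0.192 CPM in mKO reloading and 0.508 CPM in flox reloading, rose in flox (2.19 ± 0.70), and Lamtor5 fell there (-0.29 ± 0.08). Of 7 cathepsin inhibitor genes 3 were tested. Cst3, the gene of cystatin C, had -0.61 ± 0.14 in mKO and -0.93 ± 0.14 in flox, both called, Cstb had 0.26 ± 0.14 in mKO and rose in flox (0.74 ± 0.14), and Cst6 was not called.

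Other cell types were followed by shorter lists. Of 6 endothelial markers, 2 rose in mKO and 4 rose in flox on reloading, or 6 in flox with total counts, and 10 of the 18 models that left out 1 library called 1 in mKO. Their summed level was 344 to 381 CPM in mKO reloading and 398 to 454 CPM in flox reloading, against 286 to 325 CPM in mKO unloading and 307 to 319 CPM in flox unloading. Pecam1, an adhesion molecule gene of endothelium, was lower in mKO at reloading by -0.48 ± 0.07 as a signed log2 difference. The other endothelial markers were not called between genotypes there. They ran from -0.31 ± 0.11 for Tek to 0.21 ± 0.14 for Kdr, the only positive value. Of 8 fibro-adipogenic progenitor markers, 2 rose and 1 fell in mKO, or 2 and 0 with total counts. In flox 4 rose and 2 fell, or 4 and 1 with total counts. Lum, the gene of the matrix proteoglycan lumican, had 0.92 ± 0.14 in mKO and 1.13 ± 0.14 in flox. The most abundant went the other way, Gsn with -0.44 ± 0.14 in mKO and -0.82 ± 0.14 in flox. Dcn had -0.23 ± 0.13, not called, and -0.40 ± 0.13 in the same order. The summed level of the 8, mainly Gsn and Dcn, was 1789 to 1813 CPM in mKO reloading and 1465 to 1779 CPM in flox reloading. At unloading it was 2087 to 2338 CPM in mKO and 2058 to 2677 CPM in flox. At reloading 2 of the 8 markers were lower in mKO, 1 without flox reloading replicate 3 or mKO reloading replicate 1 and 0 without flox reloading replicate 2 or mKO reloading replicate 3.

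Only 3 of 8 neutrophil markers passed the low-count filter, and the sum of the list was at most 9.11 CPM in a library. Of 10 muscle fibre markers, 2 rose in mKO, or 4 without mKO reloading replicate 2, and 2 rose and 3 fell in flox, or 2 and 2 with total counts, with Acta1 at 0.80 ± 0.19 in mKO and 0.68 ± 0.19 in flox. Myh2 had 1.75 ± 0.29 in mKO and 1.05 ± 0.29 in flox, and Pvalb -0.15 ± 0.14 and -0.54 ± 0.14. At reloading Ckm was higher in mKO than in flox by 0.37 ± 0.09 (edgeR, adjusted p = 0.0262), and the other fibre markers were not called. Of 5 satellite cell and myoblast markers, 1 rose and 0 fell in mKO, and 1 rose and 1 fell in flox. Myog, the gene of a differentiation factor, rose by 0.77 ± 0.26 in mKO, a call lost without any of 13 single libraries, and by 2.08 ± 0.27 in flox. At reloading Myog was lower in mKO than in flox by -1.10 ± 0.25 (edgeR, adjusted p = 0.0174), as a signed log2 difference, though the libraries overlapped. Myf5, a gene of myoblast commitment, had -0.48 ± 0.21 in mKO, which was not called, and fell by -0.75 ± 0.21 (adjusted p = 0.0101) in flox, as signed log2 changes, a call lost without flox unloading replicate 3. Pax7, Myod1 and Des were not called in flox, at -0.30 ± 0.21, -0.29 ± 0.28 and -0.11 ± 0.15 in that order. Des averaged 2858 CPM in flox reloading, against 23.7 CPM for Myog, and in bulk RNA its part from muscle fibres cannot be told apart. The part of these lists in the results was not tested either.

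**Figure D5:**
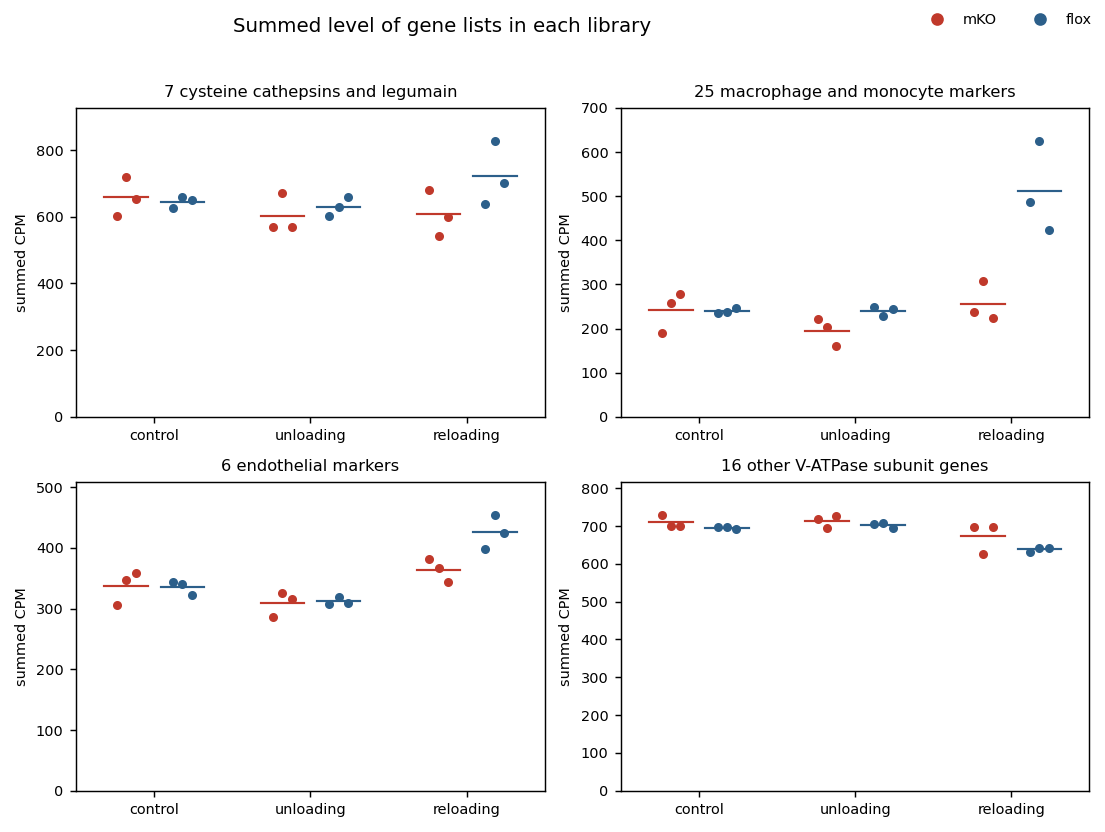
Summed CPM per library (axes from 0) of the 7 cysteine cathepsins and legumain, 25 macrophage markers, 6 endothelial markers and 16 other V-ATPase genes at control, unloading and reloading, mKO (red) left of flox (blue), with lines at the mean. The macrophage sum lies at 224 to 307 CPM in mKO reloading and 423 to 625 CPM in flox reloading. The V-ATPase sum lies at 632 to 643 CPM in flox reloading against 694 to 708 CPM in flox unloading. That difference depends on scaling, as total counts in place of TMM moved the median of all genes there by 0.109 on the log2 scale.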

How the data were processed

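Per the labels' protocols, RNA was extracted with Trizol, enriched for polyadenylated RNA and made into TruSeq Stranded mRNA libraries, 18 in all. Per the submitters' processing notes, STAR 2.7.3a aligned the reads, GRCm38.p6 was the genome and featureCounts 2.0.3 the counter. Per the file headers the counter was version 1.6.4 of that program, run on annotation release 94 with no option for strand, pairs or multimapped reads. The deposited table holds the authors' raw counts per gene. The authors' deposited DESeq2 tables hold log2 fold changes and p-values, and were matched to contrasts by the rank correlation of p-values across genes (0.974 for reloading against control, 0.972 for reloading against unloading, both with the interaction).

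Counts were fitted with edgeR 4.0.16 in R 4.3.3: TMM factors, the default low-count filter (17833 genes), 1 model of 6 group means with 12 residual degrees of freedom, the quasi-likelihood F test of 12 contrasts, Benjamini-Hochberg adjustment over all tested genes and a threshold of 0.05. The SE was derived from the fold change and F. CPM used TMM-scaled totals, and CPM per kb the exon length in the table. The alternatives were RLE factors, total counts, no filter, 1 CPM in 3 libraries, a replicate block, only the compared groups, DESeq2 1.42.0 and leaving out each library; for the other lists, total counts and leaving out each library were added after seeing the data. The procedure was tested on simulated data. All libraries were used, no pair was a duplicate, and 0 columns were left out. Members and lists, and the rule for named genes (in each role the genes with the largest and smallest flox change on reloading, and up to 6 called between genotypes; of each other list up to 3 called genes with the largest change), were chosen with earlier results of these data known. Lipa, Ctsk and Man2b1 were given by library, and Ckm was named, after their values were seen.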

Additional observations from a re-analysis of the deposited data

Results flagged for a closer look

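One result met a rule for a closer look. The change of Lgmn on reloading against control differed between genotypes by -0.89 ± 0.18 on the log2 scale in a direct test of the difference (edgeR interaction, adjusted p = 0.0345). It was 0.40 ± 0.13 in mKO and 1.29 ± 0.13 in flox, and 9 of the 18 models that each left out 1 library did not call it.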

How the results depend on the processing

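Leaving out 1 library at a time gave 1 to 4 called genes for unloading in mKO (4 with all libraries), 0 to 2 for unloading in flox (0), 3 to 12 for reloading against unloading in mKO (10) and 13 to 19 in flox (17). Against control it gave 0 to 5 in mKO (1) and 11 to 17 in flox (16). For mKO against flox at reloading it gave 2 to 10 (9), and for the interaction with reloading against control 0 to 5 (1). A model of only the compared groups called 2 genes for unloading in mKO, 1 for unloading in flox, 5 for reloading against unloading in mKO and 4 for mKO against flox at reloading. Total counts called 1 for unloading in flox, 15 for mKO against flox at reloading and 7 for the interaction with reloading against control. No low-count filter called 1 for unloading in flox, 4 for reloading against control in mKO, 1 for mKO against flox at unloading, and 4 and 6 for the interactions with reloading against unloading and against control. A minimum of 1 CPM in 3 libraries called 1 for unloading in flox, 2 for reloading against control in mKO and 2 for that last interaction. DESeq2 called 1, 2, 1 and 6 for unloading in flox, reloading against control in mKO, and the interactions with reloading against unloading and against control. The replicate block called 2 for reloading against control in mKO, 4 for the interaction with reloading against control and 15 for reloading against unloading in mKO. The labels do not say whether same-numbered libraries belong together, and the correlations between libraries cannot settle it. Deviations of same-numbered libraries correlated at -0.0744 to 0.126, with 2 of 45 pairs over 0.1. Their median was 0.0244, against -0.00428 for other pairs, and 11 of 18 libraries correlated best with their own number. The causes were not tested. No single-gene value reversed. Under every alternative 12 of the 17 flox calls of reloading against unloading and 3 of the 10 mKO calls (Ctsk, Lgmn and Gusb) held, as did 10 of the 16 flox calls against control and 2 of the 9 genotype calls at reloading (Lgmn and Cd63). Counting error limits the low genes most, with 117 counts of Glb1 in 1 library.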
